A study of Mus musculus with 22 samples.

Results

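The genes described here are the mouse solute carriers of 8 families that move sodium, chloride, protons, phosphate, calcium or sulfate across membranes: Slc5, Slc8, Slc9, Slc12, Slc20, Slc24, Slc26 and Slc34. Within these families the members were taken by symbol, as every entry of the deposited expression table whose name is 1 of these families followed by a or b and a member number. This gave 56 members of the 54514 gene entries in the table. Of these, 21 had a mean of at least 1 TPM, a transcript abundance scaled for length and library total, over the 22 libraries, and 35 did not.

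RNA was measured in mpkCCD cells (mpkCCDc11 clone 38), a mouse cortical collecting duct line that was grown on permeable supports. In all groups the last medium was free of serum and held dexamethasone, sodium selenite and transferrin. Unsorted wild-type (WT) cells received vehicle (3 libraries) or dDAVP, an agonist of the vasopressin V2 receptor (3 libraries). Every library of the 4 GFP reporter lines (C1, C11, C43, C50) came from dDAVP-treated cells, 2 from the GFP-negative and 2 from the GFP-positive fraction of each line. The labels list several doses and durations of dDAVP without assigning them to libraries, and neither was analysed here. Each reporter line is a single clone, and the labels used here do not describe how the reporter was built. The labels do not say whether replicates were separate cultures, so p-values measure the spread between these libraries, which may be technical.

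As background, the collecting duct sets the final composition of urine, and its principal cells take up sodium through a channel and water through aquaporin-2. Cotransporters and exchangers serve other tasks there. The Slc12 family couples chloride to sodium or potassium and sets cell volume and chloride, the Slc9 family exchanges sodium for protons at the cell surface and in organelles, and the Slc20 family supplies phosphate. Other members mark other nephron segments: Slc12a1 the thick ascending limb, Slc12a3 the distal convoluted tubule, Slc34a1 and Slc5a2 the proximal tubule, and Slc26a4 the beta intercalated cell.

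The libraries carried their labels' main features. Aqp2 averaged 69.1 TPM with vehicle and 2868 TPM with dDAVP, and GFP averaged 11.8 TPM in GFP-negative and 1307 TPM in GFP-positive libraries. Genes above 0 TPM numbered 17177 to 31292 per library, and the read depth is unknown, since TPM do not keep it. Replicate 1 of C50 GFP-negative cells stood apart. Its cytosolic ribosomal protein genes held 8.02% of TPM against 3.77% to 5.99% in the other libraries, its 56 members summed to 109 TPM against 205 to 393 TPM, and 12 of the 21 expressed members were lowest there. Counts of calls between fractions, within C50 and between clones are given with and without it.

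Among the 21 expressed members, levels ranged from 37.2 TPM for Slc9a8 to 1.00 TPM for Slc9a4, on a scale that accounts for transcript length. Slc12 held 36.4% of the summed member TPM with 6 of 9 members expressed, Slc9 held 21.6% with 5 of 11, and Slc20 held 20.2% with 2 of 2. Slc5 (2 of 11 expressed), Slc26 (4 of 11) and Slc8 (2 of 4) held 8.46%, 7.35% and 5.69%. No member of Slc24, the potassium-dependent sodium-calcium exchangers, or of Slc34, a family of sodium-phosphate cotransporters, reached a mean of 1 TPM over the 22 libraries. The members next to the minimum were Slc9a2 (1.06 TPM) and Slc9a4 just inside it and Slc26a1 (0.999 TPM) and Slc9a5 (0.850 TPM) just outside.

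**Figure D1:**
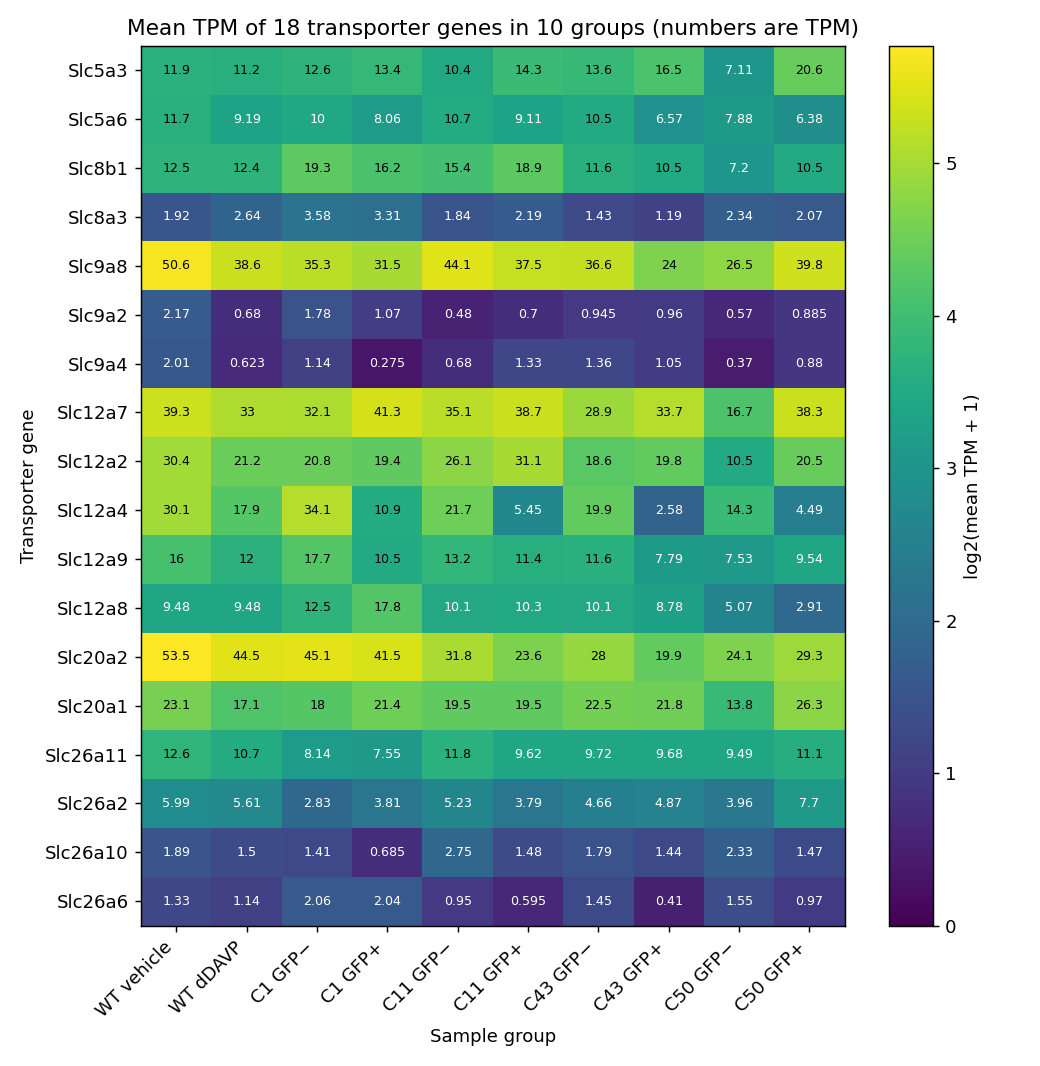
Mean TPM of 18 of the 21 expressed transporter genes (rows, by family) in the 10 groups (columns), coloured by log2(mean TPM + 1) with the mean TPM written in each cell. Slc9a8, Slc12a7 and Slc20a2 are high in nearly all groups, and the Slc12a4 row alternates between higher GFP-negative and lower GFP-positive columns.

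The sodium-proton exchangers were led by Slc9a8 (NHE8, found in endosomes, the Golgi and apical membranes). Slc9a3, the exchanger of the proximal tubule brush border, averaged 0.0345 TPM and was listed at 0 in 14 libraries. Of the phosphate carriers, Slc20a2 averaged 35.5 TPM and Slc20a1 20.3 TPM, whereas Slc34a1 averaged 0.0564 TPM. Of the chloride cotransporters, the potassium-chloride carriers Slc12a7 (KCC4) and Slc12a4 (KCC1) averaged 33.9 and 16.9 TPM. Slc12a2 (NKCC1, the basolateral sodium-potassium-chloride cotransporter) averaged 22.2 TPM. Slc12a1 averaged 0.0459 TPM and was listed at 0 in 13 libraries, Slc12a3 averaged 0.348 TPM, and Slc26a4 averaged 0.0523 TPM.

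The remaining expressed members serve calcium, osmolytes, vitamins and sulfate. Slc8b1 (NCLX, the mitochondrial sodium-calcium exchanger) averaged 13.4 TPM, and Slc8a3 of the surface exchangers averaged 2.25 TPM. Slc5a3, which takes up the osmolyte myo-inositol, averaged 13.02 TPM, and the multivitamin carrier Slc5a6 averaged 9.13 TPM. The less well characterised Slc12a9 and Slc12a8 averaged 11.9 and 9.64 TPM. Of the anion exchanger family, Slc26a11 averaged 10.2 TPM, the sulfate carrier Slc26a2 4.93 TPM, Slc26a10 1.68 TPM and the chloride-bicarbonate-oxalate exchanger Slc26a6 1.25 TPM.

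Slc12a4 was the member that the comparisons below turned on. The gene lies on the minus strand of GRCm38 at chr8:105943590-105966097 (GENCODE M21). The bases upstream of its RefSeq start (GRCm38.p6, chr8:105966116-105966365, minus strand) are shown because they lie directly upstream of the member with the smallest adjusted p between fractions. Capitals mark matches on either strand to the GC box (GGGCGG) and to an ETS core (GGAAGT).
Slc12a4 upstream: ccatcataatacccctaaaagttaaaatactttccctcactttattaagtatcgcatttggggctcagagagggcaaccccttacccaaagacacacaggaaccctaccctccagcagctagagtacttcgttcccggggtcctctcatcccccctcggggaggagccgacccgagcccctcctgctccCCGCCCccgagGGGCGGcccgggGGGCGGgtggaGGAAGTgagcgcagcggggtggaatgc
The window held 3 GC boxes and 1 ETS core, and none of the letters TGACGTCA (cAMP response element), TGACG (its core) or TGANTCA (AP-1), also searched on both strands. Over 32851 windows of this length, GGGCGG was present in 32.7%, GGAAGT in 19.7%, TGACGTCA in 1.55%, TGACG (which TGACGTCA contains) in 17.8% and TGANTCA in 6.75%. Windows were given for 16 starts of 11 of the 21 expressed members. At any of their starts, 8 of the 11 had a GC box, 4 had TGACG and 2 had GGAAGT. TGACGTCA and TGANTCA were found in 0. These counts are per member and the shares above are per window, so they cannot be set side by side.

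The first comparison asked which members differed between dDAVP and vehicle in unsorted WT cells. Slc12a4 was the only member called, at an adjusted p under 0.05 over all genes tested with limma on log2(TPM + 1). It measured 33.9, 27.6 and 28.8 TPM in the vehicle libraries and 17.7, 20.4 and 15.6 TPM in the dDAVP libraries, so the groups did not overlap. The means were 30.1 ± 3.32 and 17.9 ± 2.41 TPM (SD, n = 3 each), a log2 change of -0.72 (SE 0.127, 95% interval -1.02 to -0.42, adjusted p = 0.0198). In unsorted cells, fewer cells with the transcript and less RNA per cell cannot be told apart.

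That was 1 of 22 members tested, against 8.88% of 13494 genes called (6.51% lower). The 22 were all 21 expressed members and Slc9a5. On the log2 scale, the 22 differences had a median of -0.25 against -0.16 over all genes tested. Scaling the libraries by median ratios moved the median of all genes to 0.00, and the Slc12a4 difference to -0.55 (adjusted p = 0.0318). The Slc12a4 call was lost on leaving out any 1 of the 3 vehicle libraries or dDAVP replicate 1 or 3 (adjusted p = 0.0518 to 0.0749, log2 differences -0.63 to -0.78). It was kept without dDAVP replicate 2 (adjusted p = 0.0162).

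Libraries did not overlap, with dDAVP lower, for 6 of the 22 members, against 28.7% of all genes. Besides Slc12a4 these were Slc12a2, Slc12a9, Slc9a2, Slc9a4 and Slc9a5, and none of these 5 passed the test. Slc12a2 measured 32.4, 29.8 and 28.9 TPM with vehicle and 18.0, 24.9 and 20.7 TPM with dDAVP (log2 difference -0.51, 95% interval -0.81 to -0.21, adjusted p = 0.0507). The surface exchanger Slc9a2 measured 2.97, 1.92 and 1.63 TPM with vehicle and 0.61, 0.69 and 0.74 TPM with dDAVP (-0.90, interval -1.52 to -0.27, adjusted p = 0.0755).

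Its neighbour in the family, Slc9a4, measured 2.89, 1.34 and 1.81 TPM with vehicle against 0.42, 0.80 and 0.65 TPM (-0.87, interval -1.56 to -0.18, adjusted p = 0.101). Slc9a2, Slc9a4 and Slc9a5 averaged over 1 TPM with vehicle and under 1 TPM with dDAVP, so they passed the minimum of this comparison only through the group where they were high, and their separation is given as a description. Slc12a9 averaged 16.03 TPM with vehicle and 11.98 TPM with dDAVP (-0.39, interval -0.68 to -0.10, adjusted p = 0.0887). Differences closest to 0 were those of Slc8b1 (-0.01, interval -0.29 to 0.28) and Slc12a8 (0.01, interval -0.31 to 0.32). The interval of Slc8a3 ran from -0.42 to 1.00.

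**Figure D2:**
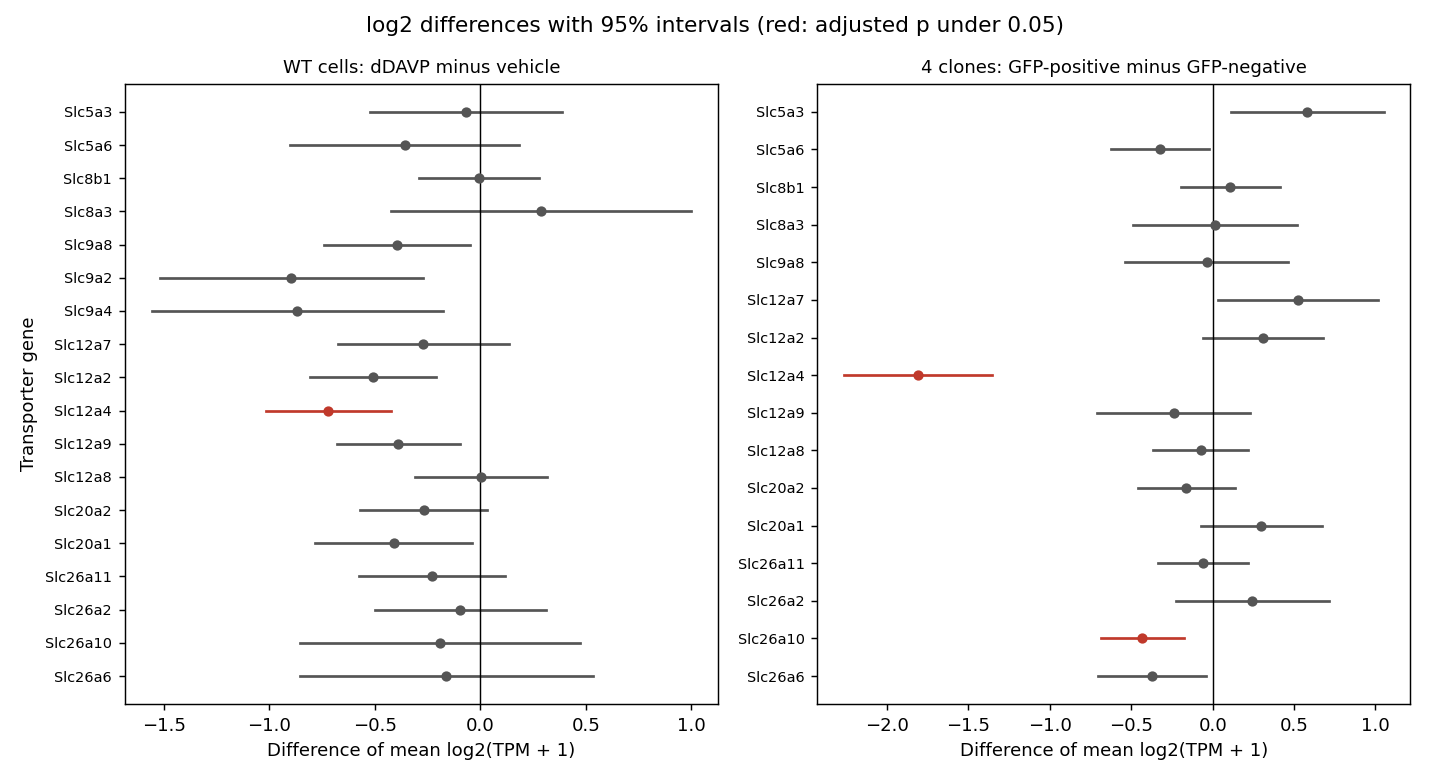
Differences of mean log2(TPM + 1) with 95% intervals from limma for 18 of the expressed members (Slc9a2 and Slc9a4 on the left only), dDAVP minus vehicle in WT cells (left) and GFP-positive minus GFP-negative over 4 clones (right), with called members in red. Slc12a4 is called in both panels (-0.72 and -1.81), and Slc26a10 (-0.43) on the right.

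The second comparison asked which members differed between GFP-positive and GFP-negative cells, all given dDAVP, over the 4 clones. Slc12a4 fell, as did the anion exchanger family member Slc26a10. In all, 3 of 20 members tested were called, against 35.3% of 13113 genes called (12.1% higher, 23.2% lower). The 20 were 19 expressed members and Slc26a1, since Slc9a2 and Slc9a4 averaged under 1 TPM in the clone libraries. The median log2 difference was -0.01 for the 20 members and -0.06 for all genes tested.

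In GFP-negative libraries Slc12a4 had a lowest value of 7.18, a median of 21.7 and a highest value of 39.6 TPM. In GFP-positive libraries these were 1.89, 4.50 and 11.0 TPM. The fractions did not overlap within any of the 4 clones, and the lowest GFP-negative value came from the library that stood apart. The means were 22.5 ± 9.19 and 5.86 ± 3.38 TPM (SD, n = 8 each), 3.84-fold lower in GFP-positive cells (log2 change -1.81, SE 0.212, 95% interval -2.26 to -1.36, limma adjusted p = 1.59e-05). Without C50 GFP-negative replicate 1 the Slc12a4 change was -1.99.

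Slc12a4 passed the test within each clone as well. In C1 it measured 28.6 and 39.6 TPM in GFP-negative and 11.0 and 10.9 TPM in GFP-positive libraries (log2 change -1.54, adjusted p = 0.034). In C11 the values were 21.7 and 21.7 against 4.39 and 6.51 TPM (-1.83, adjusted p = 0.0148), and in C43 they were 17.6 and 22.2 against 3.28 and 1.89 TPM (-2.56, adjusted p = 0.00112). In C50 they were 7.18 and 21.4 against 4.61 and 4.37 TPM (-1.30, adjusted p = 0.0281), or -2.03 without the GFP-negative library that stood apart.

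The ratio of means was thus 3.12 in C1, 3.98 in C11 and 3.19 in C50, and 7.69 in C43, with an SE of 0.385 on each log2 change. The test for unequal changes between clones did not pass for Slc12a4 (adjusted p = 0.522). Leaving out any 1 of the 4 libraries of C1 or of C11 lost that clone's own call. The C1 call was also lost without 7 of the 12 libraries of other clones (adjusted p up to 0.175 over all alternatives), and the C1 and C50 calls with a filter of any TPM above 0. Leaving out C50 GFP-negative replicate 2 or either GFP-positive library lost the call in C50 and took its change to -0.58 without that GFP-negative library. Mean Slc12a4 in GFP-positive cells ranked C1 (10.9 TPM), C11 (5.45 TPM), C50 (4.49 TPM) and C43 (2.58 TPM), but the C11 and C50 libraries overlapped. Aqp2 in the same libraries averaged 2017, 3002, 4651 and 6952 TPM in that order of clones. In GFP-negative cells, in the same order, Slc12a4 averaged 34.1, 21.7, 14.3 and 19.9 TPM. Aqp2 averaged 69.5, 249, 1243 and 1624 TPM there. A relation between Slc12a4 and Aqp2 was not tested.

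**Figure D3:**
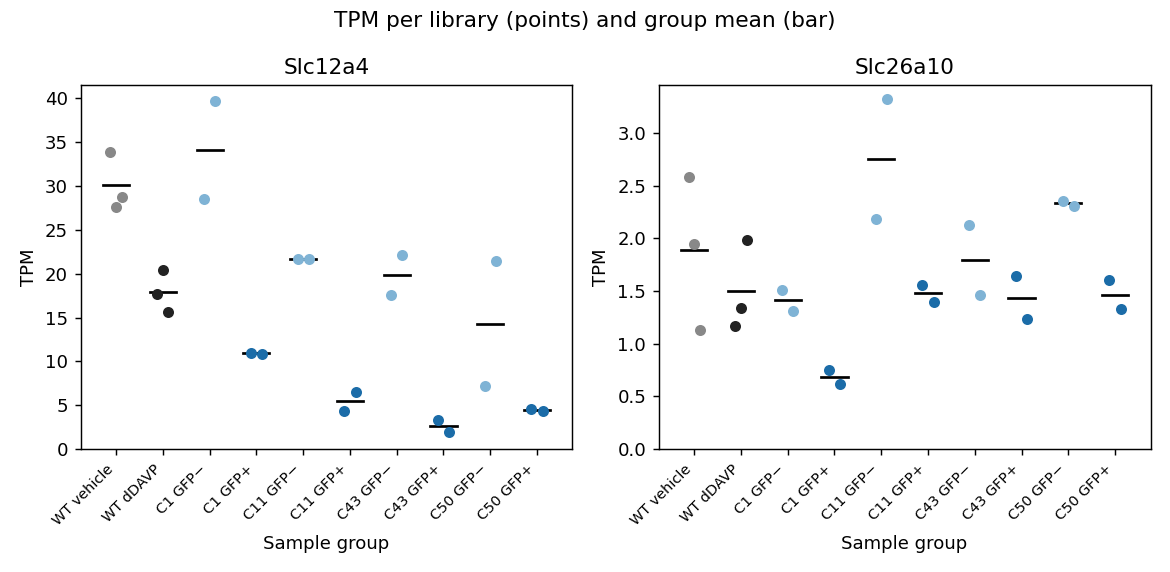
TPM in each library (points) and group mean (bars) for Slc12a4 and Slc26a10 in the 10 groups, with GFP-negative libraries in light blue and GFP-positive in dark blue. Slc12a4 is lower in both GFP-positive libraries of every clone, and Slc26a10 overlaps in C43.

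Slc26a10 (GRCm38 chr10:127171393-127180645, minus strand), whose transport function is poorly known, fell. Its GFP-negative libraries ranged from 1.31 to 3.32 TPM and its GFP-positive libraries from 0.62 to 1.64 TPM, without overlap in 3 of 4 clones. The means were 2.07 and 1.27 TPM (log2 change -0.43, SE 0.120, interval -0.69 to -0.18, adjusted p = 0.0111). The call was lost without clone C1, without clone C11, in the libraries with more and in those with fewer genes detected taken alone (adjusted p = 0.178 and 0.464), and with a correction for transcript length and GC content (log2 difference -0.31, adjusted p = 0.11). At these levels the added 1 TPM in log2(TPM + 1) shrinks the change, which was -0.68 with 0.1 TPM added.

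Fractions did not overlap in 1 direction in all 4 clones for 2 members, Slc12a4 among them, against 18.9% of all genes. The other 17 members tested did not pass. Nearest were Slc5a3 (10.9 to 16.2 TPM, log2 difference 0.58, interval 0.11 to 1.05, adjusted p = 0.0532) and Slc26a6 (1.501 to 1.00 TPM, -0.37, interval -0.70 to -0.04, adjusted p = 0.076). Slc12a7 followed at 28.2 and 38.0 TPM (0.53, interval 0.03 to 1.02, adjusted p = 0.0918), and Slc5a6 at 9.77 and 7.53 TPM (-0.32, interval -0.63 to -0.02, adjusted p = 0.0931). For Slc26a11 the interval was -0.33 to 0.22, so larger differences lie outside it.

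Leaving out C50 GFP-negative replicate 1 raised the members called from 3 to 9 of 20 and the genes called from 4626 to 6043. That was 46% of all genes, so the members' share was near that of all genes. The 6 members added were Slc5a3 (0.37, adjusted p = 0.0261) and Slc12a7 (0.29, adjusted p = 0.0424), both higher in GFP-positive cells, and 4 that were lower. Those were Slc5a6 (-0.43, adjusted p = 0.00603), Slc12a9 (-0.46, adjusted p = 0.00598), Slc20a2 (-0.29, adjusted p = 0.0119) and Slc9a8 (-0.28, adjusted p = 0.0418). Median-ratio scaling moved the median of all genes from -0.06 to 0.01 and called 7 of 19 members, against 35.7% of all genes. It split the called genes into 2385 higher and 2294 lower, against 1582 and 3044 with TPM as deposited.

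The balance of the potassium-chloride cotransporter transcripts Slc12a4 and Slc12a7 is given as a description. Slc12a4 was 44.5% of their summed TPM in GFP-negative libraries (35.2% to 53.1%) and 12.7% in GFP-positive libraries (5.51% to 21.4%). The sum itself averaged 50.7 and 43.8 TPM, with overlapping libraries. With vehicle and dDAVP in WT cells, Slc12a4 made up 43.4% and 35.6% and the sum averaged 69.3 and 50.9 TPM. Shares within a library do not depend on its scaling, and the library that stood apart had a Slc12a4 share within the range of the other GFP-negative libraries.

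**Figure D4:**
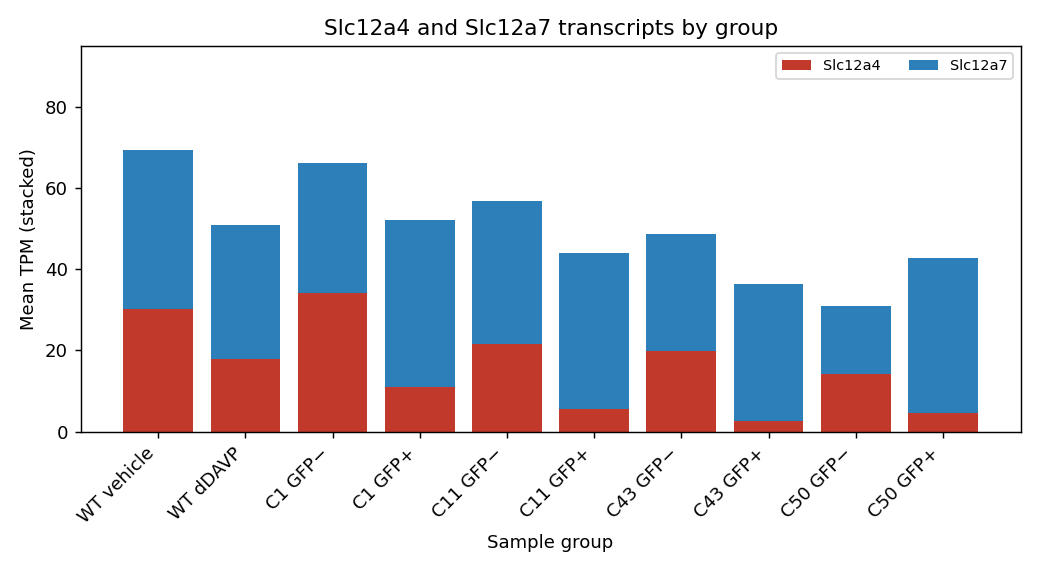
Mean TPM of Slc12a4 and Slc12a7 stacked for each of the 10 groups, with bars starting at 0. The Slc12a4 segment is shorter in each GFP-positive bar than in the GFP-negative bar of the same clone, and Slc12a7 is the taller segment in all but C1 GFP-negative cells.

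Within single clones, Slc12a4 was the called member in C1, C11 and C43, and C50 had further calls. C1, C11 and C43 had 1 of 20 members called each, against 7.22%, 7.94% and 16.3% of genes. C50 had 7, against 26.6% of genes (12.8% higher, 13.8% lower). Among the 7, Slc5a3 (1.55, adjusted p = 0.00894), Slc12a7 (1.37, adjusted p = 0.0345), Slc12a2 (1.00, adjusted p = 0.0277) and Slc20a1 (1.00, adjusted p = 0.0304) rose, and Slc12a4 and Slc12a8 (-0.61, adjusted p = 0.0339) fell. For Slc5a3 the C50 libraries held 3.63 and 10.6 TPM in GFP-negative against 17.9 and 23.3 TPM in GFP-positive cells. The Slc12a8 call was kept in 12 of 23 alternatives and the Slc12a7 call in 15 of 23. Leaving out either C50 GFP-positive library lost all of these named calls except that of Slc5a3. The Slc5a3 call was lost without GFP-positive replicate 2.

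For 5 of these 7 members the lowest of all 22 libraries was C50 GFP-negative replicate 1. Without it, C1 had 3 members called and C43 had 5, against 15.9% and 29.6% of all genes, and C11 had 1, against 17.7%. In that fit, and with the remaining GFP-negative library assumed to vary like the other groups, Slc5a3 (0.89, adjusted p = 0.0368), Slc12a4 and Slc12a8 (-0.88, adjusted p = 0.003) were called in C50, against 23.7% of all genes. Slc12a2, Slc12a7 and Slc20a1 were not (adjusted p = 0.165 to 0.209). Without replicate 2 instead, 11 members were called in C50, against 52.2% of all genes, and neither Slc12a4 nor Slc12a8 was among them. The part of this library's state in the C50 differences was not tested further.

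Whether the fraction difference was unequal between clones was tested directly by the limma F-test for the interaction. It called 0 of 20 members, with 1 at an unadjusted p under 0.05, against 0.869% of genes called. That 1 was Slc12a8, with log2 differences of 0.48 in C1 and 0.02 in C11, and of -0.19 in C43 and -0.61 in C50 (limma adjusted p = 0.24). It was called under median-ratio scaling (adjusted p = 0.0403), quantile normalization, the length and GC correction, and without either C50 GFP-negative library. Without C50 GFP-negative replicate 2 the interaction called 10 of 20 members, among them Slc12a8 and Slc12a4, against 38.6% of all genes.

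The third comparison asked which members differed between the clones when both fractions were averaged. It called 7 of 20 members, against 31.6% of genes, so the members' share was near that of all genes. Slc12a8 differed most clearly (adjusted p = 1.97e-05). Its 4 libraries per clone ranged from 11.0 to 18.1 TPM in C1 and from 2.77 to 6.21 TPM in C50, with 9.87 to 10.7 TPM in C11 and 8.72 to 10.2 TPM in C43. The C1 and C50 ranges overlapped no other clone, those of C11 and C43 overlapped each other, and the WT libraries spanned 8.05 to 10.4 TPM.

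Slc8b1, the mitochondrial exchanger (adjusted p = 0.00499), averaged 17.7 TPM in C1 and 17.2 TPM in C11, and 11.1 TPM in C43 and 8.83 TPM in C50, where SDs over 4 libraries were 1.89 to 3.32 TPM. C1 and C11 did not differ beyond this spread, nor did C43 and C50. Slc20a2, a phosphate carrier (adjusted p = 0.0124), averaged 43.3 TPM in C1 and 27.7, 23.9 and 26.7 TPM in C11, C43 and C50. All 4 C1 libraries (38.3 to 51.9 TPM) lay above all libraries of the other clones, the highest of which held 33.4 TPM. In WT cells it averaged 53.5 TPM with vehicle and 44.5 TPM with dDAVP.

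Slc12a4 also differed between clones (adjusted p = 0.012), with clone means of 22.5 TPM in C1 and 13.6 TPM in C11, against 11.2 TPM in C43 and 9.40 TPM in C50. Each of these averages a high and a low fraction. The remaining calls were Slc12a2 (adjusted p = 0.0264), Slc26a6 (adjusted p = 0.0424) and Slc26a1. Over the alternatives the Slc12a2 call was kept in 14 of 23 and the Slc26a6 call in 11 of 22. Leaving out any 1 library of C1 or of C11 lost the Slc26a6 call. Slc26a6 averaged 2.045 TPM in C1, and 0.77, 0.93 and 1.26 TPM in C11, C43 and C50. Slc26a1, a sulfate-oxalate exchanger, stood at 3.55 and 3.10 TPM in C1 GFP-negative libraries and at no more than 1.33 TPM in any other library. It passed the minimum of this comparison only through that group, where it was high, so its values are a description. The number of calls fell to 4 on leaving out C1 GFP-negative replicate 2 or either C1 GFP-positive library, against 21.7% to 24.4% of all genes. It rose to 15 of 20 without C50 GFP-negative replicate 2, against 60.8% of all genes. Slc12a8 and Slc8b1 were called in each of these 4 cases. Without C50 GFP-negative replicate 1 the same 7 members and Slc9a8 were called, against 47.2% of all genes, and the C50 mean of Slc8b1 was 9.90 TPM and that of Slc12a2 18.6 TPM, in place of 8.83 and 15.5 TPM.

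**Figure D5:**
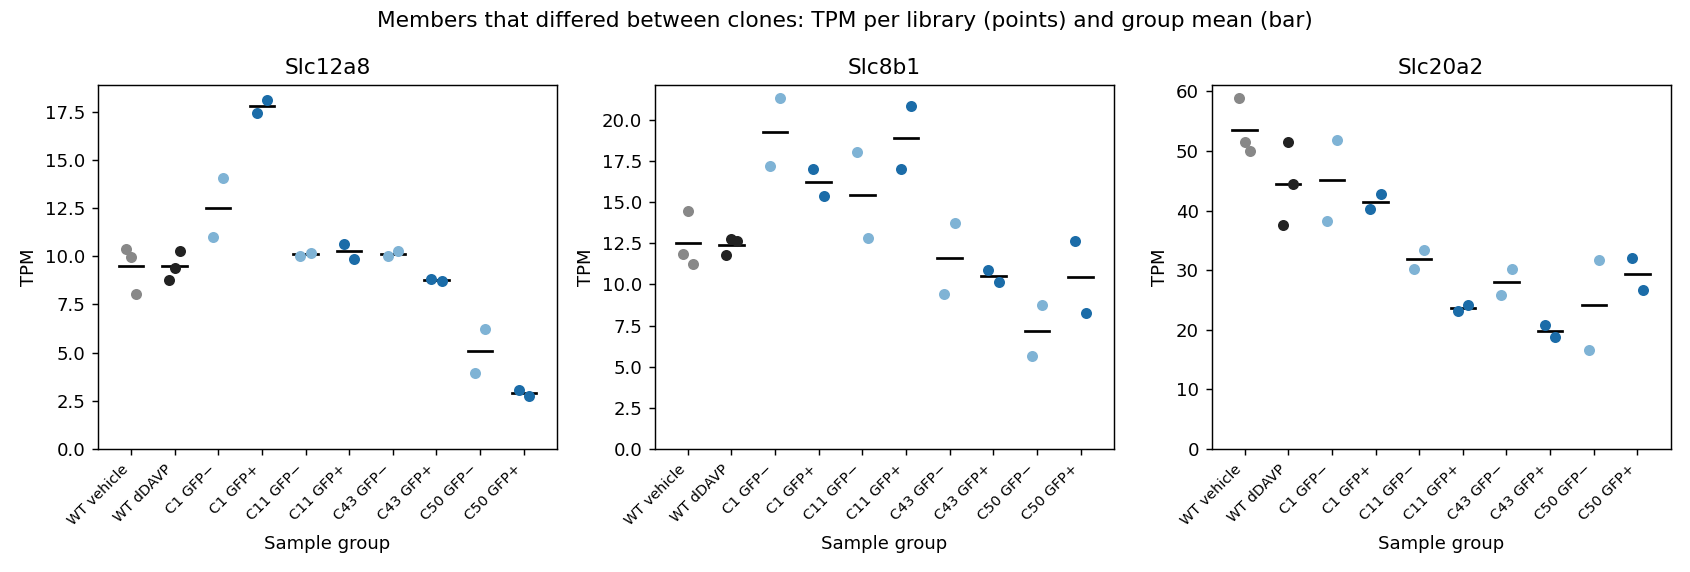
TPM in each library (points) and group mean (bars) for Slc12a8, Slc8b1 and Slc20a2 in the 10 groups. Slc12a8 is highest in C1 and lowest in C50 (2.77 to 6.21 TPM), and Slc20a2 is higher in C1 than in the other clones.

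Genes that act on these transporters were read from lists of partners. The WNK, SPAK and OSR kinases with their regulators switch the Slc12 cotransporters by phosphorylation. Of this list 9 of 13 genes were tested, and 0 passed in the dDAVP comparison, against 8.88% of all genes. In the GFP comparison 3 rose and 0 fell, against 12.1% of all genes called higher and 23.2% lower: Sgk1, an aldosterone-induced kinase, from 361 to 762 TPM (log2 change 1.08, adjusted p = 2.03e-06), the ubiquitin ligase Nedd4l (0.67, adjusted p = 0.00106) and the kinase scaffold Cab39l (0.50, adjusted p = 0.00132). Wnk4 averaged 32.1 and 42.7 TPM (0.38, interval -0.02 to 0.78, adjusted p = 0.131). Without C50 GFP-negative replicate 1, where the summed level of the list was lowest of all GFP-negative libraries, the same 3 rose and Oxsr1 fell.

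Scaffolds and partners of the exchangers, with genes of acid-base and phosphate handling, had 7 of 13 genes tested. With dDAVP 2 rose and 1 fell, against 2.37% of all genes called higher and 6.51% lower: Chp1, a calcium-binding partner of sodium-proton exchangers, rose from 42.1 to 106 TPM (1.31, adjusted p = 0.000492), the scaffold gene Slc9a3r1 (NHERF1) rose (0.35, adjusted p = 0.026) and Slc9a3r2 (NHERF2) fell (-0.46, adjusted p = 0.0171). Between fractions 4 rose and 1 fell, against 12.1% and 23.2% of all genes. The same 5 genes were called without C50 GFP-negative replicate 1. Chp1 (0.92, adjusted p = 8.98e-05) and Slc9a3r1 (0.44, adjusted p = 2.22e-05) were higher in GFP-positive cells, as was the carbonic anhydrase Car2 (0.66, adjusted p = 2.63e-05). Slc9a3r2 fell from 40.3 to 13.5 TPM (-1.54, adjusted p = 6.76e-07), without overlap in 4 of 4 clones.

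Osmolyte and tonicity genes accompany Slc5a3 and the volume-sensitive cotransporters. With dDAVP 1 of 6 tested fell, Nfat5, a tonicity-responsive transcription factor, from 47.3 to 22.7 TPM (-1.04, adjusted p = 0.0435), against 8.88% of all genes called. Between fractions 1 of 5 rose and 2 fell, against 35.3% of all genes called, and the same 3 were called without C50 GFP-negative replicate 1. Akr1b3, the aldose reductase that makes sorbitol, fell from 236 to 102 TPM (-1.21, adjusted p = 2.57e-07), the heat-shock gene Hspa4l fell (-0.76, adjusted p = 6.9e-05) and Hspa1b rose (0.50, adjusted p = 0.0266).

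Of 17 chloride channel genes, 15 were tested and 0 passed with dDAVP, against 8.88% of all genes called. Their median log2 difference was -0.32, against -0.16 over all genes tested, and that of Ano1, a calcium-activated chloride channel, was -0.56 (adjusted p = 0.0675). Between fractions 0 rose and 4 fell: Ano1 from 43.2 to 10.4 TPM (-1.86, adjusted p = 9.56e-06) and 3 subunits of the volume-regulated anion channel, Lrrc8c (-0.85, adjusted p = 0.0008), Lrrc8b (-0.68, adjusted p = 0.000857) and Lrrc8a (-0.52, adjusted p = 0.0162). Of all genes, 23.2% were called lower, near the channels' 4 of 15. Without C50 GFP-negative replicate 1 the 4 were called along with Ano6, Clcn4, Clcn7 and Lrrc8d, so that 8 of 15 fell, against 32.6% of all genes called lower.

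Markers of other cell types were read from lists too. Those for the thick ascending limb, distal convoluted tubule, fibroblasts and endothelium had no gene with a mean of 1 TPM, and their summed levels in single libraries did not exceed 2.32 TPM. Of the proximal tubule list 1 of 7 genes was expressed (Lrp2, which rose by 0.56 between fractions), of the alpha intercalated list 2 of 7 (Aqp6 rose between fractions) and of the beta intercalated list 1 of 4. Of 3 leukocyte markers 2 were expressed, with sums of 17.4 to 31.6 TPM in GFP-negative and 11.5 to 21.5 TPM in GFP-positive libraries, and Csf1r fell (-0.57). The principal cell list, Aqp2 included, had 10 of 12 genes expressed. Between fractions 6 of its 10 genes rose and 1 fell, against 12.1% and 23.2% of all genes. Without C50 GFP-negative replicate 1, 7 rose and 1 fell. With dDAVP 3 rose and 2 fell, against 2.37% and 6.51% of all genes. Their part in the transporter results was not tested.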

How the data were processed

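The 22 libraries were made from total RNA with a full-length cDNA kit (SMART-Seq HT) and Nextera XT and sequenced paired-end, per the labels' protocols. Reads were processed with STAR and RSEM, per the submitters' processing notes. Versions, genome build and annotation are not given in the sources used here. The authors deposited gene expression as TPM, which keep no read depth, so no interval from counts was made and replicate spread is the measure of precision. The 980 lines sharing 79 symbols were summed per symbol.

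The members and gene lists were chosen with earlier results of these data known. Genes with a mean of at least 1 TPM over the libraries of a comparison were fitted on log2(TPM + 1) with limma 3.58.1 (R 4.3.3) with a mean-variance trend. P-values were two-sided, adjusted over all genes (Benjamini-Hochberg), and called under 0.05. The 6 WT libraries gave the dDAVP comparison and the 16 clone libraries the GFP comparison, with clone as covariate. Fitting each clone's fractions separately, with a shared spread, gave within-clone changes, the interaction and clone differences. Alternatives were a pseudocount of 0.1, other filters, scalings and moderation, the replicate number as a block, genes detected, and leaving out libraries or clones. A length and GC correction and a fit to the 4 WT libraries with more genes detected were chosen after seeing the data, as were the list counts and clone means without C50 GFP-negative replicate 1. The fits were tested on simulated data. Expressed members could all be named, but results for some of them are not reported here, while counts and medians cover all members. Called partner genes were named by size of change, at most 3 per direction and list. The promoter window shown and the shares were chosen after values were seen. Promoter windows are from RefSeq (GRCm38.p6).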

Additional observations from a re-analysis of the deposited data

Results flagged for a closer look

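The GFP-fraction difference was unequal between clones for 114 of 13113 genes (0.869%). Of the transporter members, partner genes and markers, 2 genes were among them, neither of them a transporter member. For Aqp2 (interaction adjusted p = 2.15e-06, limma F-test) the log2 difference was 4.84 in C1 and 3.59 in C11, and 2.10 in C43 and 1.90 in C50. For Bsnd, the barttin subunit of kidney chloride channels (interaction adjusted p = 0.00755), it was 0.55 in C1, -0.69 in C11 and -0.12 in C50, and -2.09 in C43, with 21.4 against 4.25 TPM in C43. Bsnd was singled out after its values were seen.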

How the results depend on the processing

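No called member changed sign under the alternatives run. The share of called genes that were higher moved with the scaling, with dDAVP and between fractions (below). Partner and marker genes are given under 1 alternative, without C50 GFP-negative replicate 1. The Slc12a4 fall between fractions kept its call in 30 of 31 alternatives and lost it with the 8 clone libraries that had fewer genes detected, where the change was -1.68 (adjusted p = 0.111). Slc26a10 kept its call in 25 of 30, and Slc12a4 with dDAVP in 9 of 16 (adjusted p = 0.0118 to 0.162). Members not called had 33 sign changes in 329 values with dDAVP and 37 in 516 between fractions, 0 of them called.

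With dDAVP the members called were 1 in the main fit (8.88% of all genes called). They were 2 with a pseudocount of 0.1, a minimum of 5 TPM or no trend (9.96%, 14.3% and 5.12%). With genes detected as a covariate they were 5 (20%). In the 4 WT libraries with more genes detected they were 0 (0.728%, with 3 members at an unadjusted p under 0.05). Leaving out 1 library gave 0 to 4 (2.31% to 15.2%). Genes called went from 1198 to 442 with any TPM above 0, 756 with median-ratio scaling, 691 with no trend, 2694 with the covariate, 101 in the 4 libraries, and 314 to 2038 without 1 library. The share called higher was 26.7%, and 59.5%, 54.1% and 59.0% after median-ratio, quantile and length-GC scaling. The scaling itself moved that share, and other causes were not tested.

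Between fractions the members called were 3 in the main fit (35.3% of all genes called). They were 7 with median-ratio scaling, quantile normalization or without clone C50 (35.7%, 38.7% and 40%). With the length-GC correction or the libraries with more genes detected they were 6 (41.2% and 29.9%). In those with fewer genes detected they were 0 (1.96%, with 2 members at an unadjusted p under 0.05). Without 1 library they were 3 to 9 (31.8% to 46%). Genes called were 4626, 250 with the libraries with fewer genes detected, and 4170 to 6043 without 1 library. The share called higher was 34.2%, and 51.0%, 50.5% and 51.5% after the 3 scalings.

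Within C1 the count of 1 (7.22% of all genes called) became 0 with any TPM above 0 (1.51% of genes; 4 members at an unadjusted p under 0.05), 2 with median-ratio scaling, quantile normalization or no trend (7.51%, 8.57% and 6.52%), and 3 with the length-GC correction (10.9%). In C43 it went from 1 (16.3%) to 2 with median-ratio, quantile, no trend and length-GC (15.8%, 17.6%, 15.1% and 20.7%). In C50 it went from 7 (26.6%) to 1 with any TPM above 0 (5.68%). The interaction count of 0 (0.869%) became 1 under median-ratio, quantile and length-GC scaling (1.21%, 1.78% and 2.13%). Leaving out 1 library gave 0 to 3 members in C1 (2.87% to 16% of genes), 0 to 1 in C11 (2.42% to 17.8%), 1 to 5 in C43 (6.58% to 29.8%), 0 to 11 in C50 (13.7% to 52.2%), 0 to 10 for the interaction (0.319% to 38.6%) and 4 to 15 for clone differences (21.7% to 60.8%). The causes were not tested.

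Same-numbered WT libraries had deviations correlated at -0.208, -0.0254 and -0.109, and pairs within clones at 0.0151 to 0.203, so the numbers were not taken to pair libraries. With the replicate number as a block, 122 genes and 0 members were called with dDAVP (3 members at an unadjusted p under 0.05), and 4259 genes and 3 members between fractions. Depth is unknown, so what it limits could not be given.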

Other observations

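Among the 35 members below the minimum, several had group patterns, given here as values chosen after they were seen. Slc5a9, a sodium-coupled sugar carrier, stood between 1.44 and 2.30 TPM in all 4 libraries of C43. It ranged from 0.04 to 0.19 TPM in C1, 0.09 to 1.13 TPM in C11 and 0.43 to 1.37 TPM in C50. In WT cells with dDAVP it reached 1.38 TPM. With any TPM above 0 as the filter, the clone difference of Slc5a9 had an adjusted p of 0.00767 (limma F-test). Slc5a9 was picked by these same values, so that p-value adds no separate support. Slc26a9, an epithelial chloride transporter, measured 1.75 and 1.35 TPM in C1 GFP-negative libraries and 0.12 and 0.28 TPM in C1 GFP-positive libraries, and at most 0.92 TPM elsewhere. Its difference in C1 with that filter was -1.09 (adjusted p = 0.198). Slc9a5, a surface sodium-proton exchanger, measured 1.35, 1.68 and 1.43 TPM with vehicle and 0.76, 1.05 and 0.62 TPM with dDAVP. Its GFP-negative and GFP-positive libraries overlapped in C1 (0.97 and 1.46 against 1.51 and 0.69 TPM). They did not overlap in C11 (0.58 and 1.10 against 0.27 and 0.37 TPM), in C43 (0.71 and 0.88 against 0.25 and 0.17 TPM) or in C50 (1.16 and 1.05 against 0.32 and 0.31 TPM). With that filter its difference over the 4 clones was -0.45 (adjusted p = 0.0662).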
